A study of Mus musculus with 12 samples.

Results

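The 33 genes described here encode parts of the junctions that hold epithelial cells together: claudins and other tight junction proteins, desmosomal cadherins and their plaque proteins, and nectins with the nectin-binding protein afadin. They were chosen by symbol from the 55421 genes of the count table, and 32 of the 33 passed the filter on low counts, among 18108 genes tested. Nectin4 was chosen because its response to paclitaxel differed strongly between the cell groups, so its values are given as a description with no test, and the counts below cover the 31 other tested genes. The gene that did not pass, Dsc3, had between 1 and 7 counts in each library.

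Bulk RNA sequencing was performed on cultures of MOC2, a mouse oral squamous cell carcinoma line, in 4 groups of 3 libraries. MOC2-25 cells are labelled proficient and MOC2-27 cells deficient in the release of extracellular vesicles (EVs), and each was given DMSO, the solvent control, or 600 nM paclitaxel for 48 h, a microtubule drug used here to induce senescence. The study asks what senescent cells signal with and without these vesicles. The labels do not name the gene that was blocked to stop vesicle release, so no targeted gene could be checked. Each EV label is a single derivative line, so a difference between labels and a difference between these lines cannot be told apart. The labels do not say that replicates were separate cultures, so the p-values measure the spread between these libraries, which may be technical.

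Tight junctions seal the space between neighbouring epithelial cells through claudins, occludin and related membrane proteins, which are tied to actin by scaffolds such as ZO-1. Desmosomes join the keratin filaments of adjacent cells: desmogleins and desmocollins bridge the gap, and plakoglobin, plakophilins and desmoplakin link them to keratin. Nectins are immunoglobulin-like adhesion proteins that bind each other across cells and connect to actin through afadin, and squamous epithelia are known for dense desmosomes.

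Libraries held between 23263472 and 62955757 counts, and the 33 genes took 0.373 to 0.483% of them. Levels are normalised read counts (CPM), relative to library totals scaled by trimmed mean of M values, and fold changes are log2 differences with their standard error. The libraries labelled EV-proficient under DMSO and EV-deficient under paclitaxel resembled each other in one measure that crosses the labels. The dngfr sequence that the authors added to the reference averaged 8.99 ± 3.23 CPM (SD, n = 3) among the EV-proficient controls and 10.9 ± 1.42 CPM among the EV-deficient cells given paclitaxel. It averaged 3.24 ± 0.683 CPM among EV-proficient cells given paclitaxel and 2.15 ± 0.349 CPM among the EV-deficient controls. Among all tested genes called between the EV labels under both treatments, 2722 of 2834 (96.0%) had opposite signs under DMSO and under paclitaxel. Whether any label is in error was not tested, and every direction below rests on the libraries as labelled. Mitochondrial transcripts took 0.653% and 0.644% of counts on average in the EV-proficient and EV-deficient DMSO groups, and 0.878% and 1.27% in the matching paclitaxel groups. Their part in the results was not tested. In bulk RNA, fewer cells of a type and less RNA per cell cannot be told apart.

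Markers of simple epithelium were abundant in every library, with a summed level of 3880 to 6908 CPM over 5 genes. Of 6 markers of squamous keratinocytes, Krt5 and Trp63 reached at most 8 and 11 counts, while the other 4 were present in every group. Group means ran from 80.0 to 681 CPM for Krt14, from 148 to 361 CPM for Krt17, from 53.5 to 328 CPM for Sfn and from 2.48 to 318 CPM for Krt6a. The sum of the 6 ranged from 555 to 648 CPM in EV-proficient DMSO libraries and from 555 to 618 CPM in EV-proficient paclitaxel libraries. It ranged from 1589 to 1795 CPM in EV-deficient DMSO libraries and from 280.0 to 287 CPM in EV-deficient paclitaxel libraries. Markers of fibroblasts, immune cells and endothelium summed to at most 14.7 CPM per list in any library. The immune markers summed to 1.48 to 1.90 CPM in EV-proficient DMSO and 12.5 to 14.7 in EV-proficient paclitaxel libraries. They summed to 13.5 to 13.8 in EV-deficient DMSO and 5.92 to 8.24 in EV-deficient paclitaxel libraries. Most of this movement lay in Csf1r, with group means of 0.944, 11.6, 12.4 and 5.34 CPM in that order. Group means were 0.396 to 1.01 CPM for Ptprc, 0.292 to 0.826 for Cd79a and at most 0.0146 for Cd3e. The part of the immune markers in the results was not tested.

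The 4 promoters printed here belong to the genes with the largest changes among those given per library, apart from Dsg3 and Jam2. They come from RefSeq (GRCm38.p6), each from 250 bases before to 50 bases after the annotated start, read 5′ to 3′ on the gene's strand, with motif matches in capitals. They lie at chr1:171369923-171370222 on the plus strand for Nectin4, chrX:139800558-139800857 on the plus strand for Cldn2, chr10:81291532-81291831 on the minus strand for Tjp3 and chr16:46496918-46497217 on the minus strand for Nectin3.
Nectin4: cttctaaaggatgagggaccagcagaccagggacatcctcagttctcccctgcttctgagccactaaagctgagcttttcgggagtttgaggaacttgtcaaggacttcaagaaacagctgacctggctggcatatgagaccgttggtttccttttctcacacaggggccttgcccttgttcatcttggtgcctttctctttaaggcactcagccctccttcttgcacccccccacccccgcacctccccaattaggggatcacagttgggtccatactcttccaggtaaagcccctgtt
Cldn2: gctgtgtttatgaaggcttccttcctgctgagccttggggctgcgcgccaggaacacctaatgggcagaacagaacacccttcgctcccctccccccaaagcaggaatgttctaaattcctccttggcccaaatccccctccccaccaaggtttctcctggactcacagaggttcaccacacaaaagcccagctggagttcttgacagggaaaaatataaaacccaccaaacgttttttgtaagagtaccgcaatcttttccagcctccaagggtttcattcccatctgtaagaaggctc
Tjp3: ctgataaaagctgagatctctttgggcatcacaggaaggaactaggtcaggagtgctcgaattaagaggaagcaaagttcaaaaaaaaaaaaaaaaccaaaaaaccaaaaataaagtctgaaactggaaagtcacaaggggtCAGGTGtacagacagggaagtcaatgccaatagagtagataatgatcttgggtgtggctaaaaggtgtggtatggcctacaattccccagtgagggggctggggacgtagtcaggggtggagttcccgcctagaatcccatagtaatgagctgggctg
Nectin3: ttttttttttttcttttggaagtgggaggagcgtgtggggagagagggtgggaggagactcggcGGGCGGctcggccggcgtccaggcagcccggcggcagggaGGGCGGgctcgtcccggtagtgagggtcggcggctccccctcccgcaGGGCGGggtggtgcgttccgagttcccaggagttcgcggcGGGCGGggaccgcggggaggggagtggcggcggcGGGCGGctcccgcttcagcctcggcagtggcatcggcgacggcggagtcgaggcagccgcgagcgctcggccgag
The search, on both strands, covered AACCGGTT, bound by grainyhead-like factors, the E-box CAGGTG, bound by Snail and ZEB factors, the AP-1 motif TGANTCA and the Sp/KLF motif GGGCGG. None of these motifs matched in the Nectin4 and Cldn2 windows, the Tjp3 window held 1 E-box, and the Nectin3 window held 5 GGGCGG matches and 40 CpG dinucleotides. The search covered windows of 21 of the 33 genes, with 29 windows in all. The desmosomal cadherin genes Dsg2, Dsg3, Dsc2 and Dsc3 were not among them. The shares and the GC content given for these windows therefore do not cover the desmosomal cadherins. CAGGTG was present in 15 of these 29 windows (51.7%) and in 20.2% of 32851 promoters of the same length. GGGCGG was present in 21 of 29 (72.4%) and in 35.7% of all promoters, TGANTCA in 2 of 29 (6.9%) and in 7.81%, and AACCGGTT in 0 of 29 and in 0.146%. Median GC content was 60.7% in these windows and 52.7% in all promoters. A match describes letters only, and binding was not measured.

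Per kilobase of exon, claudins held the highest places of the group, though Cldn1 (7.13), Cldn23 (4.70) and Cldn2 (0.476) ranked far lower. Length here is the union of all annotated exons of a gene. In CPM without length, Afdn averaged 587, above Cldn6 at 523. Averaged over the 12 libraries, Cldn6 stood at 304 CPM per kb, Cldn4 at 281, Cldn3 at 131 and Cldn7 at 95.0. F11r, the junctional adhesion molecule JAM-A, reached 62.3 CPM per kb, afadin (Afdn) 57.4 and ZO-1 (Tjp1) 49.0. Among desmosome genes, plakoglobin (Jup) was the most abundant at 38.5 CPM per kb, while the desmosomal cadherin Dsg3 stood at 0.466. Of the 33 genes, 19 exceeded 10 CPM per kb and 6 were under 1 CPM per kb, namely Nectin3, Cldn2, Dsg3, Jam3, Nectin1 and Dsc3. The genes differed widely in how far they ranged: the highest group mean was under 1.5 times the lowest for 14 of the 32 tested genes and at least 2 times the lowest for 10.

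**Figure D1:**
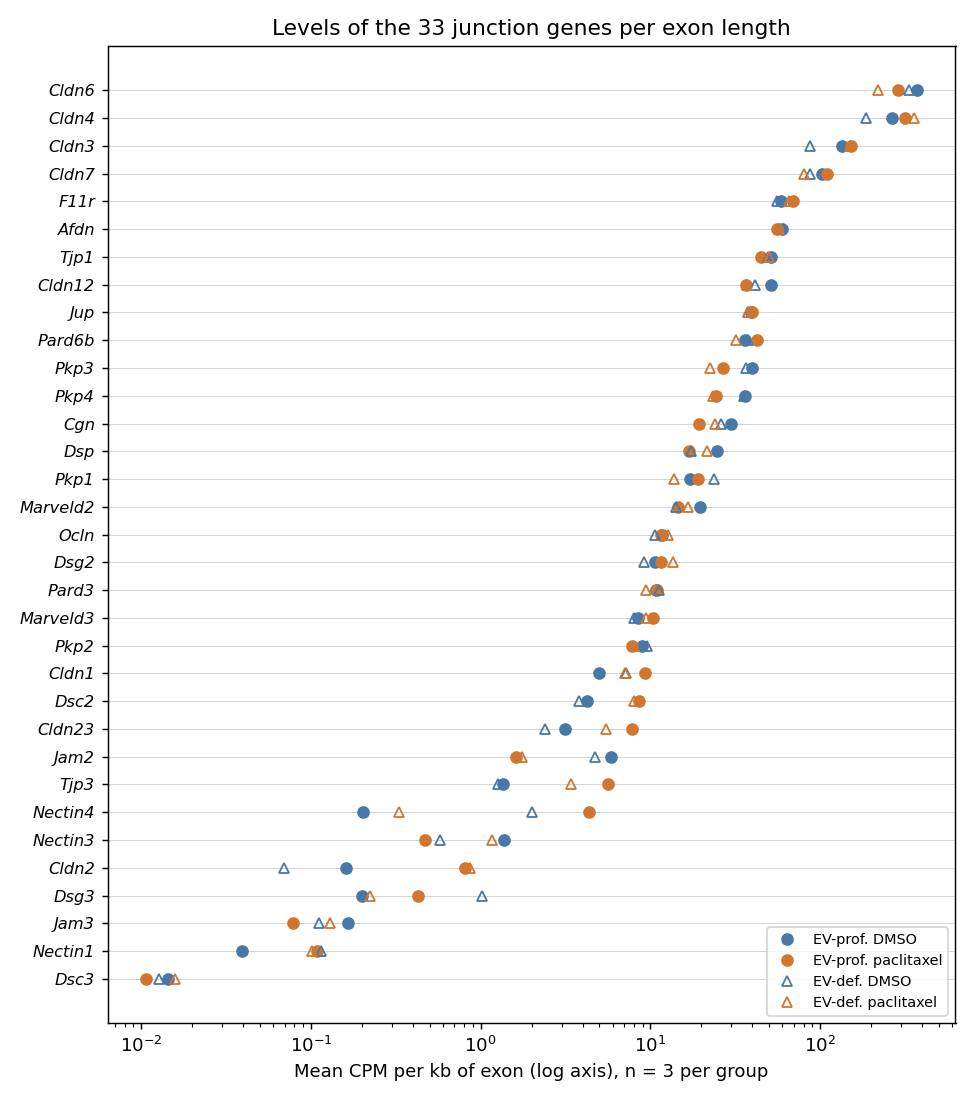
Mean level of each of the 33 junction genes in CPM per kb of exon on a log axis, with 1 point per group. Cldn6 and Cldn4 lie highest and Dsc3 lowest, and Nectin4 shows the widest gap between groups.

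Paclitaxel changed most of these genes in both derivatives. In cells labelled EV-proficient, 22 of the 31 tested genes other than Nectin4 were called (71.0%), 11 higher and 11 lower, beside 58.2% of all genes tested (31.1% higher, 27.1% lower; edgeR quasi-likelihood test, Benjamini-Hochberg adjusted p under 0.05). In cells labelled EV-deficient, 23 of 31 were called (74.2%), 13 higher and 10 lower, beside 62.9% of all genes (32.4% higher, 30.5% lower). The median log2 change was 0.03 and 0.00, beside 0.05 and 0.07 over all genes. Changes of at least 2-fold were called for 8 of 31 genes in EV-proficient cells, beside 21.9% of all genes, and for 7 of 31 in EV-deficient cells, beside 25.2%. The treated and control libraries did not overlap for 25 of 31 genes in EV-proficient cells, beside 62.3% of all genes, and for 23 of 31 in EV-deficient cells, beside 68.7%. Set against these backgrounds, the counts show nothing particular to junction genes. With upper-quartile scaling the calls split into 14 higher and 9 lower in EV-proficient cells and 16 higher and 6 lower in EV-deficient cells. The paclitaxel effects in the 2 derivatives share no library, and 7 of the 31 genes were higher in both and 6 lower in both, beside 18.9% and 18.5% of all genes. Another 2 were higher in EV-proficient and lower in EV-deficient cells, beside 3.93% of all genes, and 3 the reverse, beside 3.15%.

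**Figure D2:**
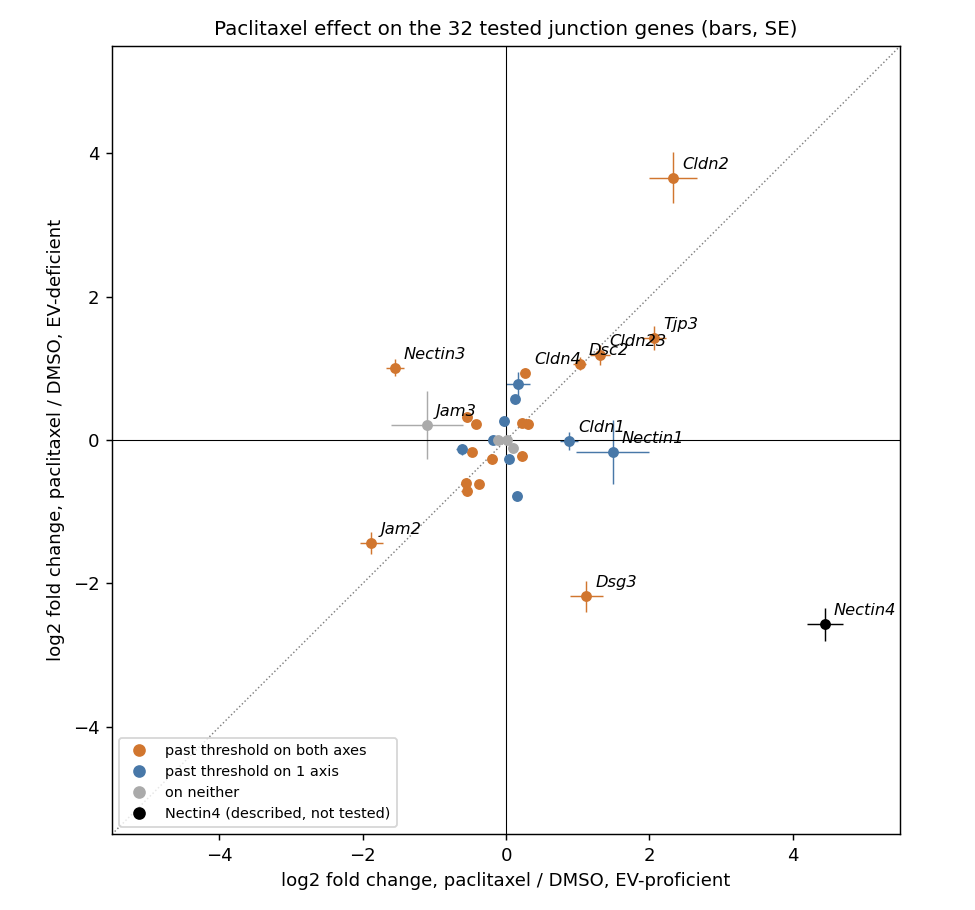
Paclitaxel effect on each of the 32 junction genes that passed the filter, in EV-proficient cells (horizontal) and EV-deficient cells (vertical), as log2 fold change against DMSO with SE bars. Colours give the number of axes on which a gene was called, except for Nectin4, which is drawn in black with no test. Points near the diagonal moved alike, while Nectin4 and Dsg3 lie at the lower right and Nectin3 at the upper left.

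Among the 8 claudins, which set the tightness and ion selectivity of the seal, 4 were higher and 2 lower with paclitaxel in each derivative, where 31.1% and 32.4% of all genes were higher and 27.1% and 30.5% lower. The steepest rise was in Cldn2, which encodes a pore-forming claudin that passes cations and water. Cldn2 stood at 0.365, 0.622 and 0.615 CPM in EV-proficient DMSO libraries, 2.63, 2.36 and 3.12 with paclitaxel, 0.0892, 0.271 and 0.329 in EV-deficient DMSO libraries and 3.47, 2.92 and 2.23 with paclitaxel. All 6 paclitaxel libraries lay above all 6 DMSO libraries. The log2 change was 2.33 ± 0.33 in EV-proficient cells (edgeR adjusted p = 3.28e-06) and 3.66 ± 0.36 in EV-deficient cells (adjusted p = 1.09e-08).

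Cldn23, a less studied claudin, also rose in both derivatives. Its level was 5.21, 6.53 and 5.68 CPM in EV-proficient DMSO libraries and 14.2, 13.4 and 15.7 with paclitaxel, and 4.50, 4.40 and 4.36 CPM in EV-deficient DMSO libraries and 10.1, 11.7 and 8.42 with paclitaxel. The paclitaxel and DMSO libraries did not overlap in either derivative. The log2 change was 1.31 ± 0.13 (edgeR adjusted p = 3.38e-08) and 1.18 ± 0.14 (adjusted p = 1.12e-07). Cldn4, a barrier-forming claudin, rose by 0.26 ± 0.06 in EV-proficient cells (adjusted p = 0.000998) and by 0.94 ± 0.06 on the log2 scale in EV-deficient cells (adjusted p = 2.5e-11).

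Cldn1, the barrier claudin of skin, rose in EV-proficient cells by 0.88 ± 0.13 (edgeR adjusted p = 3.96e-06) and changed by -0.01 ± 0.12 in EV-deficient cells (adjusted p = 0.939). Cldn3, also a sealing claudin, rose in EV-deficient cells by 0.79 ± 0.17 (adjusted p = 0.000377). In EV-proficient cells its log2 change was 0.17 ± 0.17 (adjusted p = 0.405), and without EV-proficient DMSO replicate 3 it was 0.47 and called. Cldn6, an embryonic claudin found in some tumours, fell in both derivatives, by 0.38 ± 0.05 (adjusted p = 2.78e-06) and by 0.62 ± 0.05 on the log2 scale (adjusted p = 1.39e-09). Cldn12 fell by 0.48 ± 0.06 in EV-proficient cells (adjusted p = 7.67e-07). Its fall by 0.17 ± 0.06 in EV-deficient cells (adjusted p = 0.0212) was not called without EV-deficient DMSO replicate 1 (-0.16) or 2 (-0.17), and with upper-quartile scaling the value was 0.02. Cldn7 was called in neither derivative, at 0.09 and -0.11. It was called higher in EV-proficient cells with upper-quartile scaling (0.15) and lower in EV-deficient cells without EV-deficient paclitaxel replicate 2 (-0.17).

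Of the 6 other tight junction membrane proteins, 2 were higher and 2 lower in EV-proficient cells, and 4 were higher and 1 lower in EV-deficient cells, against the same shares of all genes (31.1% higher and 27.1% lower, then 32.4% and 30.5%). Jam2, an immunoglobulin-like adhesion molecule best known from endothelium, fell most. It stood at 38.2, 37.4 and 30.9 CPM in EV-proficient DMSO libraries and 10.1, 7.42 and 11.9 with paclitaxel, and at 33.7, 27.3 and 25.3 CPM in EV-deficient DMSO libraries and 10.5, 8.22 and 13.1 with paclitaxel. All 6 paclitaxel libraries lay below all 6 DMSO libraries. On the log2 scale it fell by 1.88 ± 0.16 (edgeR adjusted p = 2.25e-09) and by 1.43 ± 0.16 (adjusted p = 5.89e-08). The endothelial markers summed to at most 4.35 CPM in any library, and their part in the Jam2 result was not tested.

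Marveld2, which encodes tricellulin at the points where 3 cells meet, fell by 0.42 ± 0.06 in EV-proficient cells (edgeR adjusted p = 5.13e-06) and rose by 0.23 ± 0.06 in EV-deficient cells (adjusted p = 0.00311). Its relative Marveld3 rose in both, by 0.30 ± 0.08 (adjusted p = 0.00156) and by 0.22 ± 0.07 (adjusted p = 0.0124), the second not called without EV-deficient DMSO replicate 2 (0.19) or 3 (0.19). Occludin (Ocln), the founding member of this family, rose in EV-deficient cells by 0.26 ± 0.07 (adjusted p = 0.00214). F11r rose by 0.23 ± 0.06 (adjusted p = 0.00453; 0.12 and not called without EV-proficient paclitaxel replicate 2) and by 0.24 ± 0.06 (adjusted p = 0.00227). Jam3, at 7 to 28 counts per library, was called in neither derivative, though its fall in EV-proficient cells was called without EV-deficient paclitaxel replicate 1 or 2 (-1.15 each, against -1.10 ± 0.50). Of its exon bases, 36.2% overlap a gene on the opposite strand, so its counts are uncertain where strand was not used.

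Among 5 scaffold and polarity genes, the ZO-3 gene Tjp3, which encodes a membrane-associated scaffold that binds claudins and occludin, rose most. Tjp3 stood at 4.24, 4.88 and 6.0 CPM in EV-proficient DMSO libraries, 18.2, 23.1 and 21.7 with paclitaxel, 5.34, 3.96 and 4.71 in EV-deficient DMSO libraries and 12, 15.9 and 9.88 with paclitaxel. Every paclitaxel library exceeded every DMSO library. The log2 change was 2.06 ± 0.17 (edgeR adjusted p = 1.11e-09) and 1.43 ± 0.17 (adjusted p = 1.5e-07). ZO-1 (Tjp1) moved little, falling by 0.19 ± 0.06 in EV-proficient cells (edgeR adjusted p = 0.0159). That fall was not called without EV-proficient DMSO replicate 1 (-0.15) or with upper-quartile scaling (-0.13). In EV-deficient cells the Tjp1 log2 change was 0.00 (adjusted p = 0.97), and with upper-quartile scaling it was 0.19 and called.

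Cingulin (Cgn), which links tight junctions to the cytoskeleton, fell in EV-proficient cells by 0.62 ± 0.08 (edgeR adjusted p = 8.03e-07). In EV-deficient cells its log2 change was -0.13 (adjusted p = 0.167), and without EV-deficient paclitaxel replicate 3 it was -0.24 and called. Of the polarity proteins, Pard3 fell in EV-deficient cells by 0.27 ± 0.06 (adjusted p = 0.000433). Pard6b rose by 0.22 ± 0.07 in EV-proficient cells (adjusted p = 0.00926) and fell by 0.22 ± 0.07 in EV-deficient cells (adjusted p = 0.00734). Its rise was not called without EV-proficient DMSO replicate 1 (0.18) or EV-proficient paclitaxel replicate 1 (0.16) or 2 (0.16). With upper-quartile scaling, the EV-deficient falls of Pard3 and Pard6b were -0.09 and -0.04 and not called.

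The desmosomal cadherins moved apart. Dsc2, the desmocollin found in most epithelia, rose in both derivatives, from 21.4, 21.7 and 23.9 CPM in EV-proficient DMSO libraries to 47.3, 41.7 and 47.5 with paclitaxel, and from 19.8, 19.8 and 20.6 CPM in EV-deficient DMSO libraries to 46.4, 43.4 and 36.4 with paclitaxel. The 6 paclitaxel libraries all lay above the 6 DMSO libraries. The log2 change was 1.03 ± 0.09 (edgeR adjusted p = 2.84e-09) and 1.07 ± 0.09 (adjusted p = 9.04e-10). Dsg2, the desmoglein of simple epithelia, rose in EV-deficient cells by 0.57 ± 0.06 (edgeR adjusted p = 4.21e-08), and its log2 change in EV-proficient cells was 0.12 (adjusted p = 0.0889). The latter was called without EV-proficient DMSO replicate 1 (0.17), with upper-quartile scaling (0.19) and with the filter of 1 CPM (0.14).

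Dsg3, the desmoglein of basal squamous epithelium and a target of pemphigus autoantibodies, went opposite ways. It stood at 1.44, 1.15 and 1.61 CPM in EV-proficient DMSO libraries and 3.12, 3.45 and 2.43 with paclitaxel, and at 7.07, 6.32 and 7.81 CPM in EV-deficient DMSO libraries and 2.09, 1.08 and 1.48 with paclitaxel. The EV-deficient DMSO libraries were the highest of the 12, and the treated and control libraries did not overlap in either derivative. It rose by 1.12 ± 0.23 on the log2 scale in EV-proficient cells (edgeR adjusted p = 0.000275) and fell by 2.18 ± 0.22 in EV-deficient cells (adjusted p = 1.69e-08). The summed squamous markers were also highest in the EV-deficient DMSO group, from 1589 to 1795 CPM, and lowest in the EV-deficient paclitaxel group, from 280.0 to 287 CPM. In EV-proficient cells, where Dsg3 rose, the sum ranged from 555 to 648 CPM with DMSO and from 555 to 618 CPM with paclitaxel, and the lowest group mean of Dsg3 was in EV-proficient DMSO libraries. The part of the squamous markers in the Dsg3 result was not tested. Dsg3 and Dsg2 lie next to each other on chromosome 18, 10.6 kb apart.

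Of the 6 desmosomal plaque genes, 4 were lower in each derivative, beside 27.1% and 30.5% of all genes, and 1 was higher in EV-deficient cells. With upper-quartile scaling, 1 of the 4 falls in each derivative, that of Pkp2, was not called. The plakophilins, which gather desmosomal proteins at the plaque, made up most of the falls. Pkp3 fell by 0.55 ± 0.07 (edgeR adjusted p = 1.08e-06) and 0.71 ± 0.07 on the log2 scale (adjusted p = 2.03e-08), and the related Pkp4 by 0.57 ± 0.06 (adjusted p = 1.19e-07) and 0.60 ± 0.06 (adjusted p = 3.63e-08). Pkp2 fell by 0.20 ± 0.07 (adjusted p = 0.0179) and 0.27 ± 0.07 (adjusted p = 0.00165), and neither was called with upper-quartile scaling (-0.14 and -0.08). Pkp1, the plakophilin of stratified epithelium, fell in EV-deficient cells by 0.78 ± 0.07 (adjusted p = 2.7e-09), while its log2 change in EV-proficient cells was 0.16 (adjusted p = 0.063). It was called there with upper-quartile scaling (0.22), without the low-count filter (0.18) and with the filter of 1 CPM (0.17).

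Desmoplakin (Dsp), which anchors keratin filaments to the plaque, fell in EV-proficient cells by 0.55 ± 0.07 on the log2 scale (edgeR adjusted p = 4.54e-07) and rose in EV-deficient cells by 0.33 ± 0.07 (adjusted p = 0.000235). Plakoglobin, the plaque protein shared with adherens junctions, was called in no comparison of the edgeR fit, with group means of 241 to 255 CPM. With upper-quartile scaling its log2 change with paclitaxel in EV-deficient cells was 0.18 and called.

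Nectin4, known as a tumour-associated nectin and the target of an approved antibody-drug conjugate, covered the widest range of the group. It stood at 0.731, 0.598 and 0.937 CPM in EV-proficient DMSO libraries and 15.3, 19.1 and 14.5 with paclitaxel, and at 7.87, 7.74 and 6.89 CPM in EV-deficient DMSO libraries and 1.62, 0.606 and 1.49 with paclitaxel. Paclitaxel libraries were high in EV-proficient cells and low in EV-deficient cells, with no overlap in either derivative. As a description only, the log2 change was 4.44 ± 0.25 in EV-proficient cells and -2.57 ± 0.23 in EV-deficient cells.

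Nectin3, a nectin that pairs with Nectin1 and Nectin2 across cells, ran the other way. Its level was 17.3, 18 and 17.3 CPM in EV-proficient DMSO libraries and 6.11, 5.17 and 6.80 with paclitaxel, and 7.92, 7.38 and 6.84 CPM in EV-deficient DMSO libraries and 15.5, 12.8 and 16.3 with paclitaxel. The groups high for Nectin3 were those low for Nectin4. Nectin3 fell by 1.55 ± 0.12 on the log2 scale in EV-proficient cells (edgeR adjusted p = 6.92e-10) and rose by 1.01 ± 0.12 in EV-deficient cells (adjusted p = 1.83e-07). Its level followed the same grouping as dngfr, high in EV-proficient DMSO and EV-deficient paclitaxel libraries, and whether the 2 are linked was not tested.

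Nectin1, which had only 4 to 42 counts per library, rose in EV-proficient cells by 1.49 ± 0.51 (edgeR adjusted p = 0.0162), and this was not called without EV-proficient DMSO replicate 2 (1.12) or EV-proficient paclitaxel replicate 2 (1.31). Afadin, the adaptor that joins nectins to actin, was steady, with group means of 567 to 611 CPM and no call in the edgeR fit. With upper-quartile scaling Afdn was called higher in EV-deficient cells (0.19), and with DESeq2 lower in EV-proficient cells (-0.13). It was also called lower in EV-proficient cells without EV-proficient paclitaxel replicate 1 (-0.17) or 2 (-0.18), and without EV-deficient paclitaxel replicate 1, 2 or 3 (-0.15 each).

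**Figure D3:**
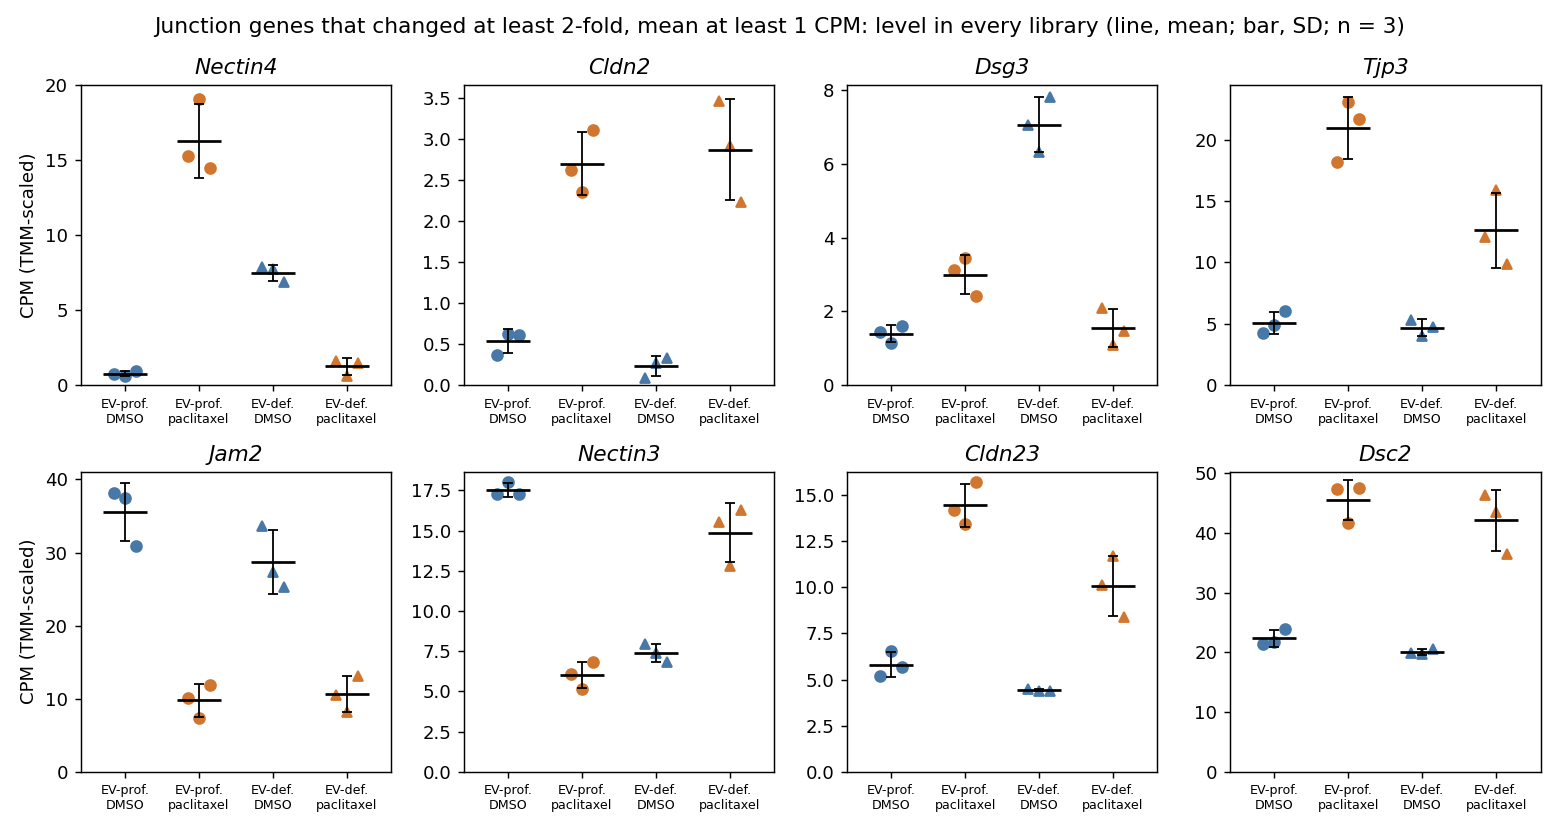
Level in CPM, on linear axes from 0, of the 8 junction genes with a change of at least 2-fold and a mean of at least 1 CPM, with 1 point per library, lines for group means and bars for SD (n = 3). Nectin4 and Dsg3 are high in EV-proficient paclitaxel and EV-deficient DMSO libraries, and Nectin3 is high in the other groups.

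The EV labels were compared within each treatment. Under DMSO, 15 of the 31 tested genes other than Nectin4 were called (48.4%), 4 higher and 11 lower in EV-deficient cells, beside 23% of all genes (12.4% higher, 10.6% lower). The libraries did not overlap for 17 of 31 genes, beside 43.3% of all genes, and 4 were called with at least 2-fold differences, beside 5.01%. Among these 4, the calls of Cldn2 and Nectin1 rested on few counts and were lost without single libraries. Without EV-proficient DMSO replicate 2 only 9 were called, and the 11 lower fell to 6 without that library, to 7 without EV-proficient DMSO replicate 3, to 6 without EV-deficient DMSO replicate 1 and to 7 without EV-deficient DMSO replicate 2. Under paclitaxel, 16 of 31 were called (51.6%), 6 higher and 10 lower, beside 37.8% of all genes (16% higher, 21.8% lower), and with upper-quartile scaling 8 were higher and 7 lower. There the libraries did not overlap for 18 of 31 genes, beside 44.1%, and 1 was called with at least a 2-fold difference, beside 8.68%. These comparisons share no library. Signs were opposite for 19 of the 31 genes (61.3%) and for 67.1% of all genes. Among those called under both treatments, 8 of 11 had opposite signs (72.7%), beside 96.0% of all genes.

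Under DMSO, 7 of the 8 claudins were called lower in EV-deficient cells, beside 10.6% of all genes, and 5 of these 7 calls were lost when a single library was left out. Cldn1 was called higher, by 0.52 ± 0.13 (edgeR adjusted p = 0.0044). Cldn4 was lower by a log2 difference of -0.51 ± 0.06 (adjusted p = 2.01e-06). The Cldn2 difference was -1.24 ± 0.40 (adjusted p = 0.0288) on 5, 13 and 15 counts in the EV-deficient DMSO libraries. It was not called without EV-proficient DMSO replicate 2 (-1.10), EV-proficient DMSO replicate 3 (-1.13) or EV-deficient DMSO replicate 1 (-0.82). Cldn3 was lower by -0.63 ± 0.17 (adjusted p = 0.00946), and not called without EV-proficient DMSO replicate 3 (-0.33), EV-deficient DMSO replicate 1 (-0.56) or replicate 2 (-0.53). Smaller calls under DMSO also rested on single libraries. The Cldn7 difference was not called without EV-proficient DMSO replicate 2 (-0.21) or EV-deficient DMSO replicate 2 (-0.22). The Cldn6 difference was not called without any 1 of the 6 DMSO libraries (-0.13 to -0.15), nor was that of Cldn23 without EV-proficient DMSO replicate 2 (-0.29) or 3 (-0.41) or any EV-deficient DMSO replicate (-0.38 to -0.40). Under paclitaxel, Cldn7 differed by -0.44 ± 0.06 (adjusted p = 1.53e-05), Cldn6 by -0.39 ± 0.05 (adjusted p = 6.26e-06) and Cldn23 by -0.52 ± 0.13 (adjusted p = 0.00312). The other 2 claudins of the chosen genes that were called there had the opposite sign to that under DMSO. Cldn1 differed by -0.37 ± 0.12 (adjusted p = 0.0214), and was not called without EV-proficient paclitaxel replicate 3 (-0.23) or EV-deficient paclitaxel replicate 2 (-0.20), with upper-quartile scaling (-0.28) or in the fit of only the groups compared (-0.35). Cldn4 differed by 0.17 ± 0.06 (adjusted p = 0.0357). That was not called without the low-count filter (0.14), nor without EV-proficient DMSO replicate 2 or 3, EV-proficient paclitaxel replicate 1 or 3, any EV-deficient DMSO replicate, or EV-deficient paclitaxel replicate 1 or 2 (0.13 to 0.16).

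Of the scaffold and polarity genes, 0 of 5 were called under DMSO, where 23% of all genes were called by edgeR, and 4 of 5 under paclitaxel, where 37.8% were. Cgn was called lower under DMSO in the fit of only the groups compared (-0.22), and without EV-proficient paclitaxel replicate 2 or 3 or EV-deficient paclitaxel replicate 2 or 3 (-0.23 each). Under paclitaxel Tjp3 was lower in EV-deficient cells by -0.74 ± 0.16 (edgeR adjusted p = 0.00081) and Pard6b by -0.40 ± 0.07 (adjusted p = 9.15e-05), while Cgn was higher by 0.30 ± 0.08 (adjusted p = 0.00424). Pard3 was lower by -0.23 ± 0.06 (adjusted p = 0.00376), and not called with upper-quartile scaling (-0.14). Tjp1, the gene not called, was at 0.14 (adjusted p = 0.0836). It was called with median-of-ratios scaling (0.17), upper-quartile scaling (0.24), the filter of 1 CPM (0.18) and DESeq2 (0.17), and without EV-deficient paclitaxel replicate 2 (0.21). The membrane protein gene Marveld2 was lower under DMSO by -0.47 ± 0.06 (adjusted p = 6.65e-06) and higher under paclitaxel by 0.18 ± 0.06 (adjusted p = 0.0266). The second was not called without EV-proficient paclitaxel replicate 2 or 3, EV-deficient DMSO replicate 2 or EV-deficient paclitaxel replicate 1 (0.16 to 0.18), without the low-count filter (0.16) or in the fit of only the groups compared (0.21).

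Of the 9 tested desmosomal genes, 4 (Dsg2, Dsg3, Dsp and Pkp1) were called with opposite signs under the 2 treatments, beside 15% of all genes. Pkp3 was called under paclitaxel alone, at -0.27 ± 0.07 (edgeR adjusted p = 0.00539; -0.20 and not called without EV-proficient paclitaxel replicate 2, nor with upper-quartile scaling, -0.17). Dsg3 was higher in EV-deficient cells under DMSO by 2.34 ± 0.23 (edgeR adjusted p = 8.59e-08) and lower under paclitaxel by -0.96 ± 0.22 (adjusted p = 0.00168). Pkp1 followed the same sides, at 0.46 ± 0.07 (adjusted p = 3.63e-05) and -0.48 ± 0.07 (adjusted p = 1.64e-05). Dsp took the opposite sides, at -0.51 ± 0.07 (adjusted p = 6.94e-06) and 0.36 ± 0.07 (adjusted p = 0.0002). Dsg2 was at -0.21 ± 0.06 (adjusted p = 0.0137) and 0.23 ± 0.06 (adjusted p = 0.0045), the first not called without EV-proficient DMSO replicate 1 (-0.16) or 2 (-0.20), or EV-deficient DMSO replicate 1 (-0.20) or 3 (-0.20). Nectin3 was lower in EV-deficient cells under DMSO by -1.25 ± 0.12 (edgeR adjusted p = 7.8e-08) and higher under paclitaxel by 1.32 ± 0.12 (adjusted p = 4.42e-08). On few counts, Nectin1 was higher in EV-deficient cells under DMSO by 1.55 ± 0.50 (adjusted p = 0.0295). That was not called without EV-proficient DMSO replicate 1 (1.56) or 2 (1.18), or EV-deficient DMSO replicate 2 (1.48) or 3 (1.46). As a description, Nectin4 differed by 3.32 ± 0.25 under DMSO and -3.69 ± 0.23 under paclitaxel.

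**Figure D4:**
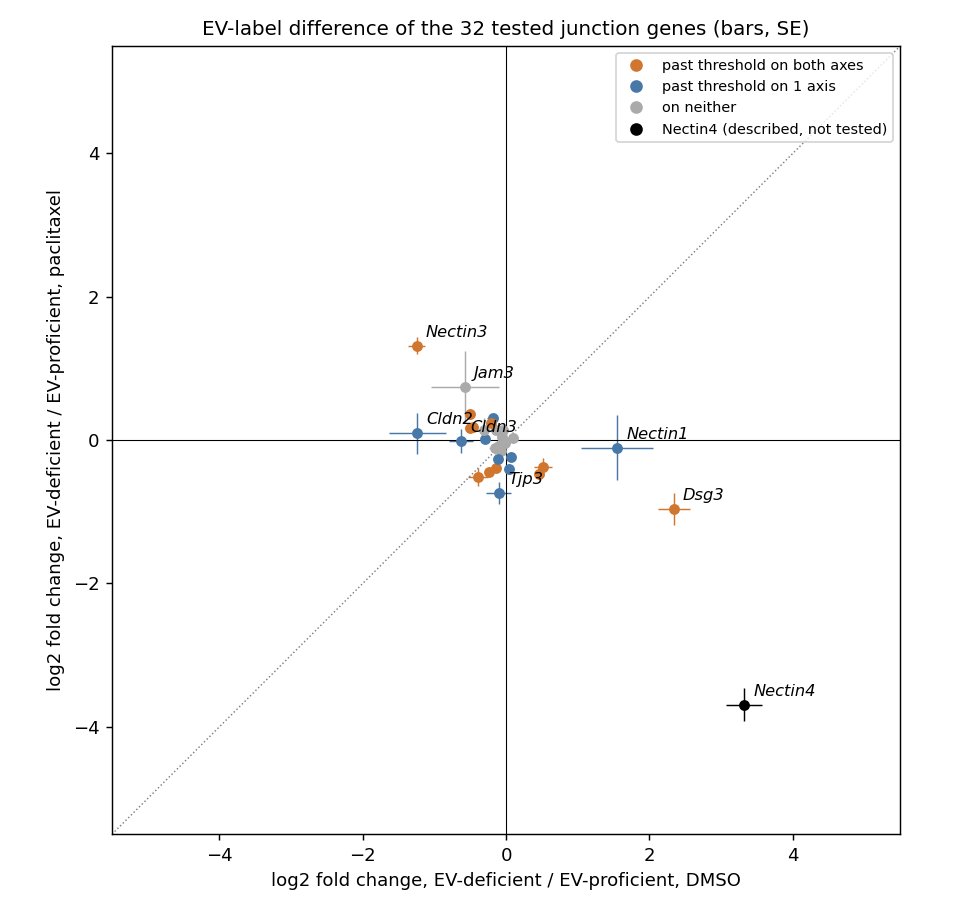
Difference of EV-deficient from EV-proficient cells for each of the 32 junction genes that passed the filter, under DMSO (horizontal) and under paclitaxel (vertical), as log2 fold change with SE bars. Colours give the number of axes on which a gene was called, except for Nectin4, which is drawn in black with no test. Nectin4 and Dsg3 are higher under DMSO and lower under paclitaxel, and Nectin3 the reverse.

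The difference of the paclitaxel effects, EV-deficient minus EV-proficient, was called for 17 of the 31 genes, 10 positive and 7 negative (13 and 4 with upper-quartile scaling), beside 40.7% of all genes (16.9% positive, 23.8% negative). Since the group was chosen with this contrast in view, nothing is read from that count.

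Other junction genes were counted in the same fit, where paclitaxel called 58.2% of all genes in EV-proficient and 62.9% in EV-deficient cells. Of 15 tested adherens junction genes and nectin partners, 5 were higher and 5 lower with paclitaxel in EV-proficient cells (66.7% called). In EV-deficient cells 3 were higher and 9 lower (80% called), and upper-quartile scaling gave 5 higher there. The N-cadherin gene Cdh2 fell by 3.22 ± 0.11 on the log2 scale in EV-proficient cells (edgeR adjusted p = 2.45e-15) and rose by 2.06 ± 0.10 in EV-deficient cells (adjusted p = 4.49e-13). The P-cadherin gene Cdh3 did the reverse, rising by 1.36 ± 0.08 (adjusted p = 4.89e-12) and falling, at -2.32 ± 0.08 (adjusted p = 1.51e-15). The E-cadherin gene Cdh1, the main adherens cadherin of epithelium, fell by 0.64 ± 0.05 (edgeR adjusted p = 1.45e-09) and by 0.13 ± 0.05 (adjusted p = 0.0378). The direction of the second, small change is uncertain, since it may depend on scaling. Upper-quartile scaling moved Tjp1 from 0.00 to 0.19 and Cldn12 from -0.17 to 0.02 in EV-deficient cells, and its value for Cdh1 is not given here. Nectin2 rose in both, by 0.51 ± 0.07 (adjusted p = 2.21e-06) and 0.67 ± 0.07 (adjusted p = 3.12e-08).

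Of 30 other tight junction and polarity genes tested, 9 were higher and 10 lower in EV-proficient cells (63.3% called), and 9 higher and 16 lower in EV-deficient cells (83.3% called). Ildr1, which encodes a tricellular junction protein that recruits tricellulin, rose by 0.59 ± 0.14 on the log2 scale (edgeR adjusted p = 0.00113) and 1.59 ± 0.14 (adjusted p = 3.15e-09). Others of the list went elsewhere. By group means, Amotl2 went from 212 to 123 CPM in EV-proficient and from 274 to 120 CPM in EV-deficient cells. Pard6g went from 8.53 to 25.9 CPM and from 19.5 to 15.6 CPM. Of 9 other desmosome, plaque and hemidesmosome genes tested, 1 was higher and 5 lower in EV-proficient cells (66.7% called), and 0 higher and 5 lower in EV-deficient cells (55.6% called). Upper-quartile scaling gave 2 higher in EV-proficient and 1 higher in EV-deficient cells. The 1 gene higher in the edgeR fit, the integrin gene Itga6, was not called without EV-proficient DMSO replicate 2 or 3, EV-proficient paclitaxel replicate 1 or 3, or EV-deficient paclitaxel replicate 1, which left 0. Plectin (Plec), a linker of keratin to hemidesmosomes, fell by 1.34 ± 0.10 (adjusted p = 3.35e-10) and 0.83 ± 0.10 (adjusted p = 2.81e-07), and periplakin (Ppl) by 0.77 ± 0.07 (adjusted p = 1.34e-08) and 0.63 ± 0.07 (adjusted p = 1.74e-07).

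Of 19 tested transcription factors known to act on junction genes, 9 were higher and 7 lower in EV-proficient cells (84.2% called), and 8 higher and 4 lower in EV-deficient cells (63.2% called). Zeb1, a repressor of epithelial genes, fell by 1.18 ± 0.17 on the log2 scale in EV-proficient cells (edgeR adjusted p = 5.41e-06) and rose by 1.80 ± 0.17 in EV-deficient cells (adjusted p = 6.18e-09). Grhl2, an activator of epithelial genes, rose by 0.65 ± 0.08 (adjusted p = 8.05e-07) and fell, at -0.93 ± 0.08 (adjusted p = 2.94e-09). Ehf, an epithelial ETS factor, rose in both, by 1.73 ± 0.23 (edgeR adjusted p = 1.3e-06) and 2.87 ± 0.23 (adjusted p = 3.97e-10). The listed factors did not all move alike. Group means of Snai1, which encodes Snail, went from 1.04 to 3.13 CPM with paclitaxel in EV-proficient cells. In EV-deficient cells they went from 2.11 to 2.56 CPM. Those of Ovol1 went from 5.39 to 2.67 CPM and from 6.51 to 2.98 CPM. The part of these factors in the junction results was not tested.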

How the data were processed

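Stranded libraries of polyadenylated RNA were sequenced from 12 MOC2 samples, per the labels' protocols. What the authors deposited is a single gene-level table of raw counts. STAR 2.5.0a and GRCm38 are named per the submitters' processing notes. The counting program, annotation release and strand setting are not given in the sources used here. The table held 0 columns of other samples, and its 2 added rows (gfp and dngfr) were left out of library sizes and tests.

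The fit used edgeR 4.0.16 (R 4.3.3) after filterByExpr (minimum count 10), trimmed mean of M values scaling, and 1 quasi-likelihood fit to all 12 libraries with a mean per group. P-values were adjusted by Benjamini-Hochberg over all 18108 genes, with a threshold of 0.05. The script was tested on simulated data. Depth per library limits precision most for genes with few counts. Exon lengths and gene overlaps came from GENCODE M21 on GRCm38.

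The members and lists were chosen with earlier results of these data known. A member is given per library where a simple comparison called it with a log2 change of at least 1 and its mean was at least 1 CPM. Of other lists, at most the 2 highest and 2 lowest called genes per paclitaxel comparison could be named, plus Cdh1, Nectin2, Pvr, Perp, Grhl2 and 1 gene that is not reported here. No pair of replicates differed by less than the sampling noise (chi-square per degree of freedom from 4.20 to 31.1). The alternatives tried were scaling by upper quartiles or by median of ratios, dropping or tightening the filter, DESeq2 1.42.0, limma-voom (limma 3.58.1), the replicate number as a block, a fit restricted to the compared groups, and each library left out in turn.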

Additional observations from a re-analysis of the deposited data

Results flagged for a closer look

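The paclitaxel effect differed between the derivatives, by the interaction term of the edgeR fit with Benjamini-Hochberg adjustment, for 17 of the 31 tested genes other than Nectin4, beside 40.7% of all genes. With upper-quartile scaling 13 differences were positive and 4 negative. The genes were chosen with this contrast in view, so the values are listed and nothing is read from their count. Values are log2 differences of the paclitaxel effects, EV-deficient minus EV-proficient, with their standard error. The positive differences, where the effect was more positive in EV-deficient cells, were 2.56 ± 0.17 for Nectin3, 1.34 ± 0.49 for Cldn2, 0.87 ± 0.10 for Dsp, 0.68 ± 0.09 for Cldn4 and 0.65 ± 0.09 for Marveld2. Smaller positive differences were 0.62 ± 0.24 for Cldn3, 0.49 ± 0.11 for Cgn, 0.45 ± 0.09 for Dsg2, 0.31 ± 0.09 for Cldn12 and 0.29 ± 0.10 for Ocln. The negative differences were -3.30 ± 0.32 for Dsg3, -0.94 ± 0.10 for Pkp1, -0.89 ± 0.18 for Cldn1 and -0.63 ± 0.23 for Tjp3, and -0.44 ± 0.10 for Pard6b, -0.30 ± 0.08 for Pard3 and -0.24 ± 0.07 for Cldn6. Of the 17 differences, 5 were lost without single libraries, in a check added after seeing the data. The Cldn3 difference was 0.30 without EV-proficient DMSO replicate 3, and it was also not called without EV-proficient DMSO replicate 2, EV-proficient paclitaxel replicate 1 or 2, EV-deficient DMSO replicate 1 or 2, or EV-deficient paclitaxel replicate 1 or 2 (0.51 to 0.67). Cldn2 was at 0.91 without EV-deficient DMSO replicate 1, and not called without EV-proficient DMSO replicate 2 or 3, EV-proficient paclitaxel replicate 1 or 2, or EV-deficient paclitaxel replicate 1 (1.18 to 1.36). Tjp3 was at -0.44 without EV-deficient paclitaxel replicate 3, and not called without EV-proficient DMSO replicate 1 or 2, EV-proficient paclitaxel replicate 2 or 3, EV-deficient DMSO replicate 1 or 3, or EV-deficient paclitaxel replicate 1 (-0.51 to -0.64). Cldn6 was not called without EV-proficient paclitaxel replicate 2 or EV-deficient paclitaxel replicate 2 or 3 (-0.18 to -0.19), nor Ocln without EV-proficient DMSO replicate 1 or 2 or EV-deficient DMSO replicate 1 or 3 (0.24 to 0.27). Other settings also lost calls: upper-quartile scaling those of Pard3 (-0.18), Cldn6 (-0.12) and Tjp3 (-0.51), median-of-ratios scaling and the filter of 1 CPM that of Tjp3 (-0.59 and -0.58), and the fit with no low-count filter those of Cldn12 (0.25) and Ocln (0.22). DESeq2 and limma-voom lost that of Cldn3 (0.66 and 0.56), and limma-voom that of Cldn2 (1.48). For Nectin4 the difference was -7.02 ± 0.34. It was not tested, because Nectin4 was chosen on it. The paclitaxel libraries lay above the DMSO libraries in EV-proficient cells and below them in EV-deficient cells, which describes the value chosen and supports nothing. The dngfr sequence crossed the EV labels in the same 4 groups, and its part in these differences was not tested.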

How the results depend on the processing

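Over the 31 tested genes other than Nectin4, 1 called value reversed: with upper-quartile scaling Cldn12 in EV-deficient cells went to 0.0167. Upper-quartile scaling moved the median of all genes to 0.11 and 0.26 in the EV-proficient and EV-deficient paclitaxel comparisons. With it, 6 genes were called lower with paclitaxel in EV-deficient cells in place of 10, and 4 negative interactions in place of 7. Of the other lists, 5 adherens junction genes were then higher in EV-deficient cells in place of 3, and 2 desmosome genes higher in EV-proficient cells in place of 1 and 1 in EV-deficient cells in place of 0; the cause was not tested. Leaving out 1 library gave 9 to 17 genes called between the EV labels under DMSO, of which 6 to 13 were lower, and 0 to 1 desmosome list genes higher with paclitaxel in EV-proficient cells.

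A replicate block was fitted although the numbers only name libraries: of 18 same-number pairs across groups, 0 had deviations correlated above 0.1 (range -0.0812 to 0.0970), and 5 of 12 libraries correlated best with their own number. With the replicate block the Cldn23 difference under DMSO was not called (adjusted p = 0.0507, log2 -0.39), and the Pkp1 rise in EV-proficient cells was called (adjusted p = 0.0474, log2 0.15). It changed no other call in the simple comparisons. Without the low-count filter, calls were lost for Tjp1 and Pkp2 with paclitaxel in EV-proficient cells, Marveld3 in EV-deficient cells, Cldn6, Cldn23 and Dsg2 between labels under DMSO, and Cldn4 and Marveld2 under paclitaxel, and Cldn3 and Pkp1 were gained in EV-proficient cells. The filter of at least 1 CPM in 3 libraries lost Cldn12 in EV-deficient cells and gained Dsg2 and Pkp1 in EV-proficient cells and Ocln and Tjp1 between labels under paclitaxel. In the simple comparisons, DESeq2 lost 0 calls and gained 2, and limma-voom lost Cldn2 and Cldn23 between the EV labels under DMSO. Among the differences of the paclitaxel effects, DESeq2 lost Cldn3 (0.66) and gained Tjp1 (0.23), and limma-voom lost Cldn2 (1.48) and Cldn3 (0.56) and gained Nectin1 (-1.90). Between labels under paclitaxel, upper-quartile scaling lost Cldn1 (-0.28), Pard3 (-0.14) and Pkp3 (-0.17). Few counts limit Cldn2, Dsg3, Jam3, Nectin1 and Dsc3 most.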
